A study of Mus musculus with 15 samples.

Results

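The Bcl2 family genes described here were Bcl2, Bcl2l1, Mcl1, Bak1, Bax, Bcl2l11, Bbc3, Pmaip1, Bid and Bad, taken as every probe set of the array that the platform annotation assigns to 1 of these 10 genes alone. Such probe sets were found for 9 of the 10 genes, 23 probe sets among 45141, and the 9 genes are among 17097 measured; Bax was not analysed here. RNA from 15 mouse samples had been hybridised to one-colour Affymetrix HT_MG-430_PM arrays, 3 arrays in each of 5 groups. Myc primary tumours arose in the cerebral cortex of nude mice that had received cerebellar cells of Cdkn2c-/-, Trp53-/-, Atoh1-GFP mice after infection of those cells with Myc. Myc secondary tumours came from sphere cultures of primary Myc tumours, grown in dishes and transplanted again. Shh tumours were medulloblastomas that formed spontaneously in Cdkn2c-/-; Trp53Fl/Fl; Nestin-Cre mice, in which the Cre is driven in neural precursors. GFP-positive and GFP-negative cells were sorted at postnatal day 6 from cerebella of Cdkn2c-/-, Trp53-/-, Atoh1-GFP mice, whose reporter marks granule neuron progenitors. The sorted cells and the cells infected with Myc therefore lacked Cdkn2c and Trp53. The Shh mice lacked Cdkn2c, and their cells lost Trp53 where Cre acted on the floxed allele. Host cells within Myc tumours, and cells without Cre within Shh tumours, need not share this loss. No group of tumours or sorted cells from mice with intact Trp53 was measured for comparison. The sample labels call the sorted cells spontaneous tumours, against the study's design text, which was followed. No label ties an array to its own animal, so the p-values below measure the spread between these samples, which may be technical.

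Proteins of the Bcl2 family decide whether the outer mitochondrial membrane stays intact. Pro-survival members (Bcl2, Bcl2l1 and Mcl1) bind and restrain the effectors Bax and Bak1, which otherwise form pores that release cytochrome c and start the caspase cascade. BH3-only members (Bcl2l11, also called Bim, Bbc3 or Puma, Pmaip1 or Noxa, Bid and Bad) carry death signals to the other members. Bbc3 and Pmaip1 are known target genes of p53, the product of Trp53, and Myc is known to sensitise cells to apoptosis. Much of the family's regulation is by protein stability, cleavage and phosphorylation, which an array of transcripts does not measure.

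Values are the deposited log2 RMA signals, on which a difference of 1 is a 2-fold difference. Levels are compared between groups for 1 probe set and never between genes. The background was set at 4.77, the 95th percentile of all values of 23 control probe sets for nonspecific signal, and a group mean under it could not be told from background. Where 1 side of a difference is under that level, the size of the difference depends on the array's floor, and the text says so. A gene is said to be higher or lower where limma's adjusted p was below 0.05, adjusted over all 17097 genes of a comparison; ± after a group mean is the SD of 3 arrays and ± after a difference is the standard error of the fit. From earlier results of these data, 3 arrays were known to stand apart from their groups, Myc primary 3, GFP-negative 3 and Myc secondary 1. Sample titles number the arrays in 2 runs. Myc primary, Shh and 2 of the GFP-negative arrays (1 and 2) carry the lower numbers, and the other arrays carry the higher ones. What a run stands for is not stated, and a term for it rests on GFP-negative 3, the only array that shares a group with the other run. Sorted GFP-positive cells had granule neuron progenitor markers at an array mean of 9.66 to 10.04, close to the 9.47 to 10.08 of Shh tumours, and all 10 microglia and macrophage markers below background. GFP-negative cells had those 10 markers at 9.21 to 10.61, beside oligodendrocyte markers at 8.48 to 9.83 and astroglia markers at 9.14 to 10.40, so this group was a mixture of cerebellar cell types. In the Myc primary tumours 4 of 7 progenitor markers, Atoh1 among them, were below background.

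The family varied among the groups more by some members than by others. Over the 5 groups, 6 of 9 members differed by limma's F test, where 47.8% of all genes did. They were Mcl1 (adjusted p = 0.00075), Bid (0.00091), Pmaip1 (0.0023), Bcl2l11 (0.0061), Bbc3 (0.029) and Bcl2l1 (0.039). Bcl2 (0.086), Bad (0.12) and Bak1 (0.16) did not pass. The distance from the lowest to the highest group mean had a median of 1.5 over the 9 members and 0.79 over all genes. It was widest for the BH3-only genes Pmaip1 (3.66), Bid (2.76) and Bcl2l11 (2.20), and narrowest for Bad (0.46) and Bak1 (0.61). The median of all genes includes genes below background in every group, whereas each member's highest group mean was above it. The medians of 1.5 and 0.79 are therefore not of like sets.

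**Figure D1:**
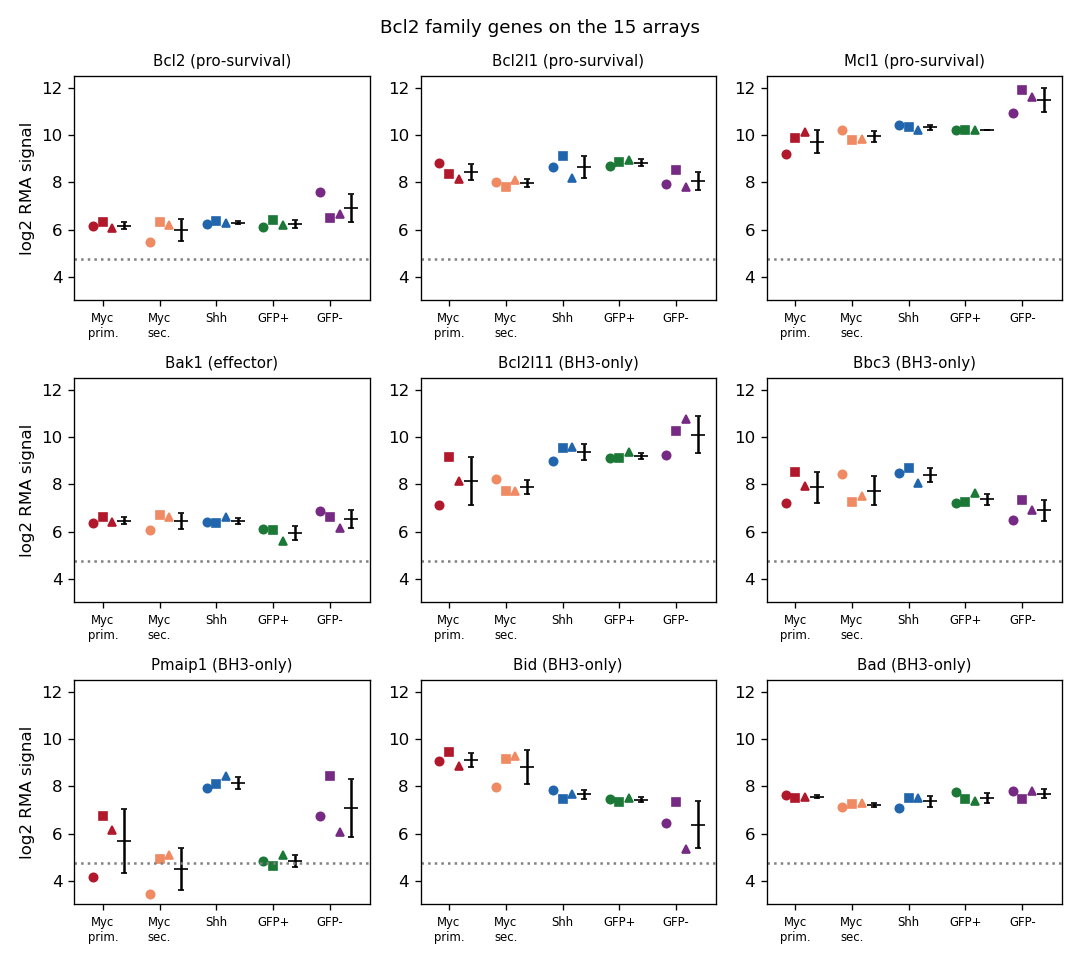
Log2 RMA signal (vertical axis) of the 9 measured Bcl2 family genes on each of 15 arrays, by group; circles, squares and triangles are replicates 1, 2 and 3, the black bar is the group mean ± SD, and the dotted line is the background of 4.77. Pmaip1 is high in Shh tumours and near background in GFP-positive and Myc secondary arrays, Bid is high in both Myc tumour groups, and Mcl1 is highest in GFP-negative cells.

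Among the pro-survival genes, Mcl1, which encodes a short-lived protein bound by Noxa and Bim, was highest in GFP-negative cells. Mcl1 read 10.91, 11.91 and 11.61 on the GFP-negative arrays, 10.43, 10.34 and 10.21 in Shh tumours, and 10.21, 10.22 and 10.21 in GFP-positive cells. The Myc secondary arrays read 10.21, 9.80 and 9.85, and the Myc primary arrays 9.19, 9.87 and 10.11. Every GFP-negative array was above every other array, and each of the remaining neighbours in the order Shh, GFP-positive, Myc secondary and Myc primary overlapped the next. Mcl1 was lower in GFP-positive than in GFP-negative cells by a log2 difference of -1.26 ± 0.26, 2.40-fold (adjusted p = 0.0026). It was also lower in Myc primary tumours than in GFP-negative cells, by -1.75 ± 0.26 or 3.37-fold (adjusted p = 0.00018). Both calls were kept in the 24 alternatives on the gene's value, although centring the arrays reduced the difference between the sorted cells to -0.76 (adjusted p = 0.039). Against Shh tumours the Myc primary difference was -0.60 ± 0.26, with no overlap of the arrays, and did not pass (adjusted p = 0.14). The table lists exactly the same Mcl1 value on 4 arrays (Shh 3, GFP-positive 1 and 3, Myc secondary 1), and 4278 of 17097 genes share a value between at least 2 arrays, so the small SD of 0.01 in GFP-positive cells includes such repeated values.

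Bcl2l1, which encodes Bcl-xL, was highest in GFP-positive cells, where the arrays read 8.69, 8.86 and 8.96. The GFP-negative arrays read 7.93, 8.50 and 7.79, all below the GFP-positive ones. Shh tumours (8.65, 9.10 and 8.19) and Myc primary tumours (8.80, 8.33 and 8.15) overlapped both sorted groups, and Myc secondary tumours (8.02, 7.79 and 8.11) overlapped GFP-negative cells. The difference between GFP-positive and GFP-negative cells was 0.76 ± 0.25, 1.70-fold higher in GFP-positive cells (adjusted p = 0.037). The call was lost in 8 of 24 alternatives. Leaving out GFP-negative 1 or 3 or any GFP-positive array gave 0.62 to 0.83 with adjusted p from 0.061 to 0.11, and cyclic loess gave 0.53 (adjusted p = 0.17). Array weights gave 0.47 (adjusted p = 0.072), and centring 1.26 (adjusted p = 0.0022).

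Bcl2, the founding member of the family, read 7.60, 6.48 and 6.65 in GFP-negative cells and 5.47 to 6.42 on the other 12 arrays. The GFP-negative arrays were thus the 3 highest, with GFP-negative 1 well above the others. Neither Myc primary tumours (-0.74 ± 0.27, adjusted p = 0.051) nor GFP-positive cells (-0.67 ± 0.27, adjusted p = 0.090) differed from GFP-negative cells past the threshold. Without GFP-negative 1 the first difference was -0.40 (adjusted p = 0.20) and the second -0.33 (adjusted p = 0.32). After centring they were -0.53 (adjusted p = 0.12) and -0.175 (adjusted p = 0.55). The first passed in 9 of 24 alternatives and the second in 5. Both differences passed without GFP-negative 2 (-0.96, adjusted p = 0.023, and -0.89, adjusted p = 0.041) and without Myc secondary 1 (adjusted p = 0.026 and 0.049), and the first also without GFP-negative 3 (-0.87, adjusted p = 0.044). The 4 other groups had means between 5.99 and 6.29 and overlapped one another in that order.

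Bak1, the 1 effector measured, read 5.58 to 6.12 in GFP-positive cells and 6.05 to 6.87 on the other arrays. Its means in GFP-negative cells, Myc primary, Shh and Myc secondary tumours were 6.53, 6.46, 6.45 and 6.45, and each overlapped the next. GFP-positive cells had the lowest mean, 5.93 ± 0.30, but the difference from GFP-negative cells, -0.61 ± 0.22, did not pass (adjusted p = 0.060). It passed in 5 of 24 alternatives, among them without GFP-negative 3 (-0.81, adjusted p = 0.016) and without Myc secondary 1 (adjusted p = 0.034). Without GFP-negative 1 it was -0.44 (adjusted p = 0.20) and without GFP-positive 3 -0.43 (adjusted p = 0.24). Centring gave -0.11 (adjusted p = 0.64) and the run term -0.21 (adjusted p = 0.62). Nor did Bak1 pass in any of the other 6 comparisons.

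Bid, a BH3-only protein that caspase-8 cleaves into its active form, was highest in the tumours driven by Myc. Its arrays read 9.07, 9.45 and 8.87 in Myc primary tumours and 7.97, 9.17 and 9.29 in Myc secondary tumours. They read 7.84, 7.46 and 7.69 in Shh tumours, 7.47, 7.32 and 7.52 in GFP-positive cells, and 6.44, 7.34 and 5.34 in GFP-negative cells. All 6 Myc tumour arrays were above all 9 others. The 2 Myc groups overlapped each other, as did Shh with GFP-positive and GFP-positive with GFP-negative.

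Bid was higher in Myc primary tumours than in GFP-negative cells by 2.76 ± 0.43, 6.77-fold (adjusted p = 0.00029), and passed in the 24 alternatives on the gene's value, where the mean of its probe sets, 1 of them below background throughout, gave 1.68. It was higher than in GFP-positive cells by 1.70 ± 0.43, 3.24-fold (adjusted p = 0.011). The groups of that comparison lie in different runs of title numbers, and with a term for the run the difference was 0.14 (adjusted p = 0.89). The term is set by GFP-negative 3 alone, where Bid read 5.34 beside 6.44 and 7.34 on GFP-negative 1 and 2. It therefore cannot separate a run from that array. The mean of the probe sets gave 0.87 (adjusted p = 0.028). Bid was higher in Myc primary than in Shh tumours, which share a run, by 1.47 ± 0.43 or 2.76-fold (adjusted p = 0.036). That call was kept in 15 of 24 alternatives and lost when any Myc primary, Shh or GFP-positive array was left out. The differences were then 1.31 to 1.60, with adjusted p from 0.051 to 0.11. Leaving out a GFP-positive array left the difference itself at 1.47 (adjusted p = 0.051). In Myc secondary against Shh tumours Bid differed by 1.14 ± 0.43, which did not pass (adjusted p = 0.076). Without Myc secondary 1, the lowest array of its group, the difference was 1.56 and passed (adjusted p = 0.018). It passed in 9 of 24 alternatives, among them the run term, which this comparison also crosses and which gave 2.698 (adjusted p = 0.011).

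Pmaip1, which encodes Noxa, a BH3-only protein that binds Mcl1, was highest in Shh tumours. Shh arrays read 7.95, 8.08 and 8.42, and GFP-negative arrays 6.74, 8.43 and 6.08. The Myc primary arrays read 4.18, 6.74 and 6.16, the GFP-positive arrays 4.82, 4.61 and 5.09, and the Myc secondary arrays 3.46, 4.91 and 5.10. Every Shh array was above every Myc tumour and GFP-positive array, whereas GFP-negative 2 matched the highest Shh array. The Myc secondary mean, 4.49 ± 0.90, was below background, the GFP-positive mean, 4.84 ± 0.24, was barely above it, and Myc primary tumours spread widely (SD 1.35).

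Pmaip1 was lower in Myc secondary than in Shh tumours by -3.66 ± 0.67, 12.7-fold (adjusted p = 0.0018), and higher in Shh tumours than in GFP-positive cells by 3.31 ± 0.67, 9.93-fold (adjusted p = 0.0094). Because 1 side of each is at or near background, these folds depend on the array's floor. Both comparisons cross the runs of title numbers, and with a term for the run the values were -2.16 (adjusted p = 0.24) and 1.81 (adjusted p = 0.40). Here too the term is set by GFP-negative 3 alone. Within 1 run, Pmaip1 was lower in Myc primary than in Shh tumours by -2.46 ± 0.67, 5.49-fold (adjusted p = 0.026). Without Myc primary 1, the lowest array and below background at 4.18, the difference was -1.70 (adjusted p = 0.096). Without Shh 1, 2 or 3 it was -2.56, -2.49 and -2.32 (adjusted p = 0.057, 0.067 and 0.075). The fit on only the 6 arrays of this comparison also missed the threshold (adjusted p = 0.057). GFP-positive cells were lower than GFP-negative cells by -2.24 ± 0.67, 4.74-fold (adjusted p = 0.026). Without GFP-negative 2 that difference was -1.57 (adjusted p = 0.11), without any 1 GFP-positive array -2.13 to -2.37 (adjusted p = 0.052 to 0.081), and with the run term -1.24 (adjusted p = 0.35).

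Bcl2l11, which encodes Bim, a BH3-only protein that binds all the pro-survival members, was highest in GFP-negative cells and lowest in the Myc tumours. Transcription factors of the Foxo group are known to activate the gene through forkhead motifs. Its promoter is shown because the window holds the forkhead letters GTAAACA, written in capitals. These are the 250 bases before the gene's first listed start in RefSeq (GRCm38.p6, chr2:128125788-128126037, plus strand), and the capitals begin 227 bases before the start.

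Bcl2l11: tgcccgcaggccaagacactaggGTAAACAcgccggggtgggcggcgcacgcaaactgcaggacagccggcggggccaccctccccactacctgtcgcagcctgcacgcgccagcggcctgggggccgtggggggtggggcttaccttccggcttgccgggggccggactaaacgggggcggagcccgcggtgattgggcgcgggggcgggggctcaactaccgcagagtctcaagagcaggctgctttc

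The letters GTAAACA, searched on both strands, occur in 3.17% of 32851 RefSeq promoter windows of this length, and in 2 of 15 windows of the family members (this one and 1 of Bbc3). The E-box CACGTG, the core motif of Myc, is in 6.02% of windows and in 2 of the 15, 1 each of Bax and Bbc3. The Gli motif GACCACCCA is in 0.225% and in 0 of the 15. The 15 windows belong to 9 members, Bax among them. Members' windows on 1 chromosome were left out of the 15 but not of the 32851. Pmaip1 has no window among the 15, so these counts do not describe its promoter. A match to these letters is a description and not a binding site.

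Bcl2l11 read 9.24, 10.27 and 10.77 in GFP-negative cells, 8.97, 9.53 and 9.59 in Shh tumours, and 9.13, 9.13 and 9.35 in GFP-positive cells, where the first 2 values are identical. It read 7.11, 9.15 and 8.15 in Myc primary tumours and 8.23, 7.72 and 7.73 in Myc secondary tumours. Each group overlapped its neighbour in this order, and Myc primary 2 lay among the Shh and GFP-positive arrays. Bcl2l11 was lower in Myc primary tumours than in GFP-negative cells by -1.96 ± 0.45, 3.89-fold (adjusted p = 0.0048), and without overlap of the arrays. The fit on only those 6 arrays missed the threshold (adjusted p = 0.061). It was lower in Myc secondary than in Shh tumours by -1.47 ± 0.45, 2.77-fold (adjusted p = 0.034). That call was lost without Shh 2 (-1.38), Shh 3 (-1.36), Myc secondary 2 (-1.38) or Myc secondary 3 (-1.39), with adjusted p from 0.092 to 0.099. Centring the arrays gave -1.14 (adjusted p = 0.080), and the run term gave -2.49 (adjusted p = 0.051). Against Shh tumours the Myc primary difference was -1.23 ± 0.45 (adjusted p = 0.089). It was -0.71 without Myc primary 1 (adjusted p = 0.32), and -1.73 without Myc primary 2, where it passed (adjusted p = 0.016).

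Bbc3, which encodes Puma, read 8.47, 8.67 and 8.07 in Shh tumours, 7.20, 8.51 and 7.93 in Myc primary tumours, and 8.43, 7.27 and 7.50 in Myc secondary tumours. It read 7.22, 7.24 and 7.62 in GFP-positive and 6.47, 7.34 and 6.90 in GFP-negative cells. The tumour groups lay above the sorted groups by their means, with overlap between every pair of neighbours. Although Bbc3 passed the F test, no single comparison passed: the closest was Myc primary against GFP-negative, 0.97 ± 0.36 (adjusted p = 0.052). It passed without Myc primary 1 (1.31, adjusted p = 0.015), GFP-negative 2 (1.19, adjusted p = 0.038) or Myc secondary 1 (adjusted p = 0.027). Without Myc primary 2 it was 0.66 (adjusted p = 0.21) and without GFP-negative 1 0.76 (adjusted p = 0.18). In all it passed in 6 of 24 alternatives. Shh against GFP-positive differed by 1.05 ± 0.36 with no overlap of arrays (adjusted p = 0.10). Bad, whose protein is held inactive by survival kinases, ranged from 7.22 ± 0.09 in Myc secondary tumours to 7.68 ± 0.20 in GFP-negative cells, and did not pass in any comparison.

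By comparison, Myc primary against Shh tumours had 1 of 9 members higher (Bid) and 1 lower (Pmaip1). Of all genes 15.8% passed, 8.46% higher and 7.33% lower. The median member difference was -0.22, beside 0.08 for all genes. Myc secondary against Shh tumours had no member higher and 2 lower (Pmaip1 and Bcl2l11), where 22.8% of genes passed, 10.5% higher and 12.3% lower. The medians were -0.38 and 0.07.

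Between Myc secondary and Myc primary tumours limma called 0 of 9 members and 0.719% of genes, 0.257% higher and 0.462% lower. Bad alone had an unadjusted limma p below 0.05, with a difference of -0.34 ± 0.15 (adjusted p = 0.38). Pmaip1 differed by -1.21 ± 0.67 (adjusted p = 0.50) with the Myc secondary mean below background, and the standard errors, 0.15 to 0.67, set how small a difference could be seen.

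The sorted cells differed in 3 members. GFP-positive cells had Bcl2l1 higher and Mcl1 and Pmaip1 lower than GFP-negative cells, where 26.3% of genes passed, 12.6% higher and 13.8% lower. Myc primary tumours had Bid higher and Mcl1 and Bcl2l11 lower than GFP-negative cells, where 33.8% passed, 19.1% higher and 14.7% lower. Against GFP-positive cells Myc primary tumours had Bid higher and no member lower, with 24.8% of genes passing, 14.5% higher and 10.3% lower. Shh tumours differed from GFP-positive cells in 1 member, Pmaip1, higher in Shh tumours, where 7.56% passed, 4.63% higher and 2.92% lower. The last comparison sets a tumour beside the progenitor-rich sorted cells, and the other 8 members differed there by at most 1.05. These comparisons share groups, so their counts are not independent of one another.

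**Figure D2:**
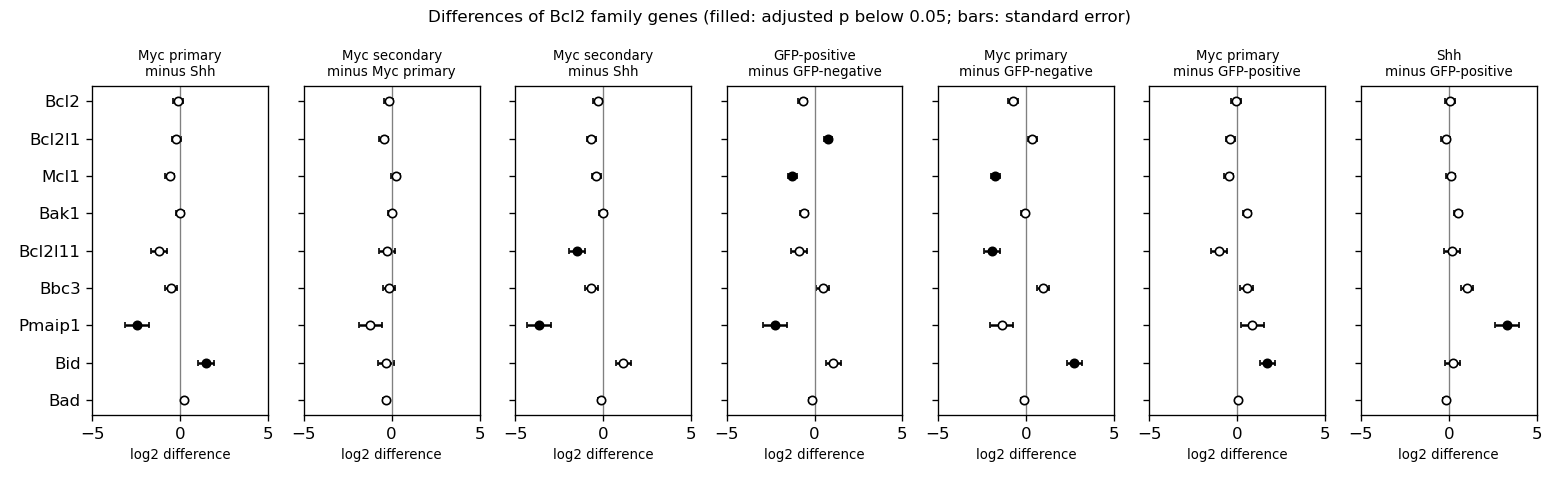
Log2 difference ± standard error of the fit (horizontal axis) for 9 Bcl2 family genes in 7 comparisons; filled points passed an adjusted p of 0.05. Bid is the filled point to the right in each comparison that subtracts Shh or sorted cells from Myc primary tumours, and no point is filled for Myc secondary minus Myc primary.

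Scaling bears on these splits. Centring each array on its median gene, instead of the deposited RMA scale, moved the median difference of all genes by more than 0.1 in 6 of the 7 comparisons. The share of called genes that were higher went from 47.7% to 82.3% for GFP-positive minus GFP-negative cells and from 46.1% to 72.9% for Myc secondary minus Shh tumours. It went from 35.8% to 77.7% for Myc secondary minus Myc primary tumours, and from 56.5% to 67.8% for Myc primary tumours minus GFP-negative cells, where cyclic loess gave 43.5%. For Myc primary tumours minus GFP-positive cells it fell to 36.4% from 58.5%, and for Shh tumours minus GFP-positive cells to 32.3% from 61.3%. No call of a member changed its sign in any of these scalings.

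The 23 probe sets allowed 7 members to be read more than once, and 18 of the 23 had a group mean above background. All 3 Mcl1 probe sets were lower in Myc primary tumours than in GFP-negative cells, by -1.05, -1.76 and -1.75. In GFP-positive against GFP-negative cells 2 of the 3 passed, and 1416880_PM_at differed by -0.60 and did not (adjusted p = 0.070). For Bcl2l11, 4 of 5 probe sets were lower in Myc primary tumours than in GFP-negative cells. The fifth, 1426334_PM_a_at, never had a group mean above background. In Myc secondary against Shh tumours 2 of the 5 were lower, while 1435448_PM_at (-0.59, adjusted p = 0.14) and 1435449_PM_at (-0.69, adjusted p = 0.28), both above background, did not pass. Between the sorted cells 1435448_PM_at alone was called, lower in GFP-positive cells by -1.36 (adjusted p = 0.0025). The second Bid probe set, 1448560_PM_at, above background except in GFP-negative cells (4.46), was higher in Myc secondary than in Shh tumours by 1.46 ± 0.34 (adjusted p = 0.0085), and higher than in GFP-negative cells in GFP-positive cells (5.81, adjusted p = 0.011) and in Myc primary tumours (6.74, adjusted p = 0.00028). In Myc primary against Shh tumours the difference was 1.02, short of the threshold (adjusted p = 0.065), as was the 0.93 in Myc primary tumours against GFP-positive cells (adjusted p = 0.068). The third Bid probe set stayed below background everywhere.

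Of the 23 probe sets, 4 were higher and 5 lower in GFP-positive than in GFP-negative cells, where 22.9% of all probe sets passed. In Myc primary tumours against GFP-negative cells, 2 were higher and 8 lower (27.7% of all probe sets). The other comparisons had 1 higher and 1 lower for Myc primary against Shh (14.6%), 1 and 3 for Myc secondary against Shh (20.8%), 1 and 1 for Myc primary against GFP-positive (23.3%), and 1 and 0 for Shh against GFP-positive (8.53%). None passed between the 2 Myc groups (1.65%). The second Bcl2 probe set, 1422938_PM_at, was lower than in GFP-negative cells in GFP-positive cells (-0.74, adjusted p = 0.0089) and in Myc primary tumours (-0.57, adjusted p = 0.031). For Bcl2l1, 3 of 4 probe sets were higher in GFP-positive than in GFP-negative cells, of which 1 besides the one used, 1420887_PM_a_at, had a group mean above background.

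**Figure D3:**
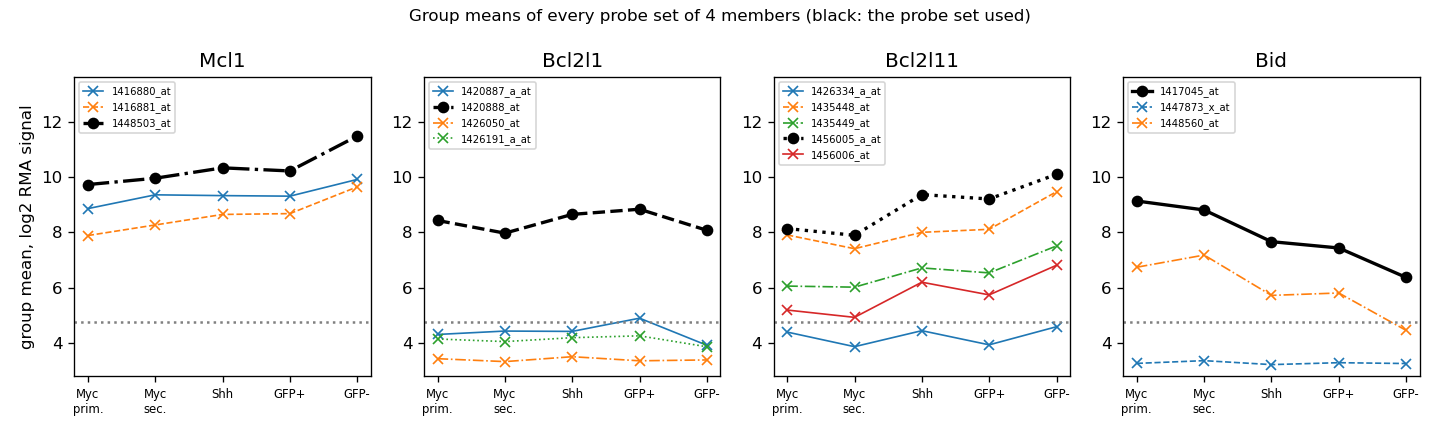
Group mean log2 RMA signal (vertical axis) of each probe set of Mcl1, Bcl2l1, Bcl2l11 and Bid in 5 groups; black lines mark the probe set used for the gene and the dotted line is the background of 4.77. Bid's 2 upper probe sets both lie highest in the Myc tumour groups, and the Mcl1 and Bcl2l11 probe sets above background peak in GFP-negative cells.

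Microglia and macrophage markers were, like Mcl1, Bcl2l11 and Bcl2, highest in GFP-negative cells. Their mean was 9.21 to 10.61 on the GFP-negative arrays, 5.54 to 5.99 in Shh tumours, 5.72 to 6.18 in Myc primary and 5.78 to 7.21 in Myc secondary tumours, and 3.82 to 4.17 in GFP-positive cells. Outside GFP-negative cells the order differed, since the markers were lower in GFP-positive cells than in Myc primary tumours while the Mcl1 and Bcl2l11 means were higher there. All 10 markers were above background in GFP-negative cells and 0 of 10 in GFP-positive cells. Astroglia (9.14 to 10.40) and the 2 erythroid markers (9.65 to 10.125) also read higher on every GFP-negative array than on any other. Oligodendrocyte, endothelial and fibroblast markers were also high there, but Myc primary 3 reached their range. Proliferation markers were lower on the GFP-negative arrays (9.98 to 10.36) than on the others (10.68 to 11.12). The part of any of these marker sets in the differences of Mcl1, Bcl2l11 and Bcl2 from GFP-negative cells was not tested. In bulk RNA, fewer cells of a type and less RNA per cell cannot be told apart. Oligodendrocyte markers were at 8.93 in Myc primary 3 and at 5.58 and 4.57 in the other 2 Myc primary arrays. Without the 3 arrays that stood apart, Bid in Myc primary tumours against GFP-negative cells was 2.37 (adjusted p = 8.3e-05) and Mcl1 was -1.88 (adjusted p = 0.0007). In that fit the difference of Bcl2l1 between the sorted cells was 0.62 and no longer passed (adjusted p = 0.11). Lymphocyte markers were below background for 5 of 6 genes in Myc primary and in Myc secondary tumours, which grew in nude mice, and for all 6 in the other groups.

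**Figure D4:**
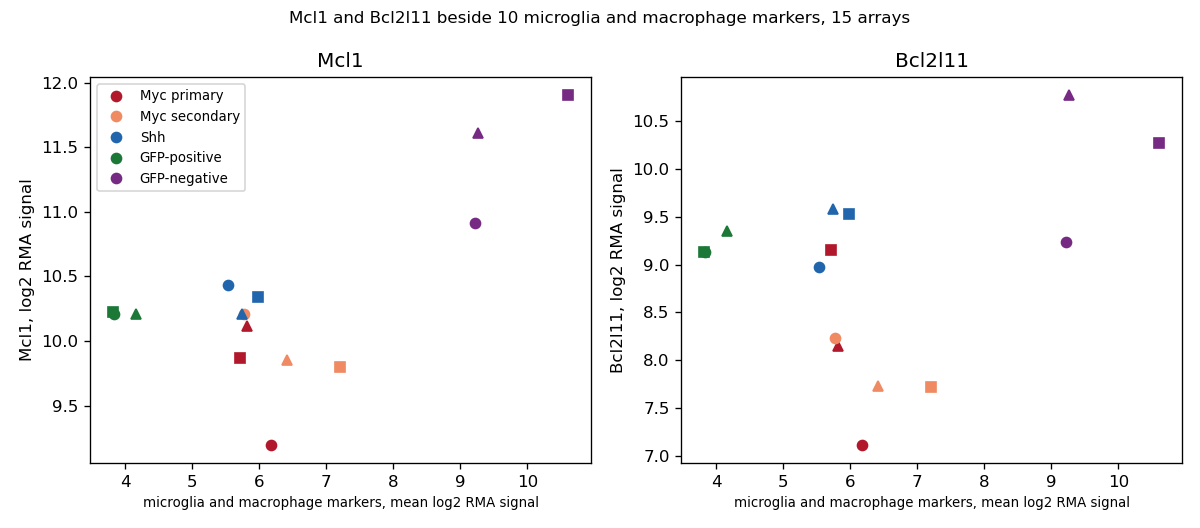
Log2 RMA signal of Mcl1 and Bcl2l11 (vertical axes) beside the mean of 10 microglia and macrophage markers (horizontal axes) on 15 arrays; colours are groups and circles, squares and triangles are replicates 1, 2 and 3. The 3 GFP-negative arrays lie at 9.21 or more on the horizontal axis, and every other array at 7.21 or less.

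The rest of the pathway was counted in 5 lists of measured genes, to be read against the share of all genes called in each comparison: 15.8% for Myc primary and 22.8% for Myc secondary against Shh tumours, 26.3% between the sorted cells, 33.8% and 24.8% for Myc primary tumours against GFP-negative and GFP-positive cells, and 7.56% for Shh tumours against GFP-positive cells. Among 14 other Bcl2 family genes, Bcl2a1a, a pro-survival relative expressed in blood cells, read 9.77 in GFP-negative and 4.14, below background, in GFP-positive cells, a difference of -5.64 ± 0.50 (adjusted p = 4.1e-06). In Myc primary tumours it read 6.498, 3.27 lower than in GFP-negative cells and higher than in GFP-positive cells (adjusted p = 0.0036). The size of both differences from GFP-positive cells depends on the floor. Bok, an effector-like member, was higher than in GFP-negative cells in GFP-positive cells (1.68) and Myc primary tumours (1.71). Bnip3l (-1.54) and Bcl2l13 (-1.16), which act in removal of mitochondria, were lower in Myc secondary than in Shh tumours, the only 2 of 14 called there. In Myc primary against Shh tumours 0 of 14 were called, and against GFP-negative cells both GFP-positive cells and Myc primary tumours had 3 higher and 1 lower, a share near that of all genes.

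Among 12 genes of the apoptosome and caspases, 3 were higher and 1 lower in Myc primary than in Shh tumours. The 3 were Htra2 (1.64 ± 0.21, adjusted p = 0.00025), a mitochondrial protease, Endog (7.84 against 5.84, adjusted p = 0.00044), a mitochondrial nuclease, and Cycs, cytochrome c (0.52 ± 0.11, adjusted p = 0.0076). Htra2 (1.75) and Cycs (0.60) were higher and Casp9, the initiator caspase of the apoptosome, was lower (-1.20) in Myc secondary than in Shh tumours, where 3 genes were higher and 1 lower. Against GFP-negative cells, Myc primary tumours had Htra2 and Cycs higher by 2.10 and 1.31 and Casp8, which cleaves Bid, lower by -2.28, among 4 higher and 2 lower. GFP-positive cells had Casp8 lower by -2.28 and Casp2 and Cycs higher by 0.70 and 0.64, also among 4 higher and 2 lower. Against GFP-positive cells Myc primary tumours had Htra2 (1.88), Endog (2.28) and Cycs (0.67) higher, with 3 higher and 1 lower. The same lists gave 0 of 12 for Shh tumours against GFP-positive cells.

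Among 8 caspase inhibitors, 2 were higher and 5 lower in Myc primary tumours than in GFP-negative cells, with a list median of -1.38 beside 0.05 for all genes. Cflar (-1.65), Xiap (-1.33) and Naip5, which read 5.63 in GFP-negative cells and was below background in Myc primary tumours (3.23), were among the lower. GFP-positive cells had 1 higher (Birc5, 0.90, a mitotic gene) and 4 lower, among them Birc3 (7.98 in GFP-negative cells, adjusted p = 0.00014) and Naip5 (adjusted p = 0.001), both below background in GFP-positive cells at 3.74 and 3.25. No caspase inhibitor differed between Myc primary and Shh tumours.

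Of 8 death receptors and adaptors, Ngfr, a neurotrophin receptor, had the smallest adjusted p. It was lower in Myc primary than in Shh tumours by -3.07 ± 0.20 (adjusted p = 9.9e-07) and in Myc secondary than in Shh tumours by -2.90, and higher in GFP-positive (7.70) than in GFP-negative cells, where it was below background (4.50). It was also lower in Myc primary tumours than in GFP-positive cells, by -2.83. Tnfrsf1a, a receptor for tumour necrosis factor, was lower than in GFP-negative cells by -2.08 in GFP-positive cells and by -1.66 in Myc primary tumours.

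Among 13 known regulators of the family, Ddit3, a stress transcription factor that activates Bcl2l11, was lower in Myc secondary than in Shh tumours by -1.71 ± 0.29 (adjusted p = 0.0011). E2f1 was higher than in GFP-negative cells by 1.87 in GFP-positive cells and by 1.25 in Myc primary tumours, and lower in Myc primary tumours than in GFP-positive cells by -0.62. Trp73, a relative of p53 that can activate Bbc3 and Pmaip1, was higher in Myc primary tumours (7.85) than in GFP-negative cells (4.23, below background; adjusted p = 0.00023). Foxo3 was higher in GFP-positive than in GFP-negative cells by 0.61 ± 0.15 (adjusted p = 0.0086). Bcl2l11 differed there by -0.89 ± 0.45 and did not pass (adjusted p = 0.19), but it passed in 3 of 24 alternatives. Without GFP-negative 1 the Bcl2l11 difference was -1.32 (adjusted p = 0.049). The mean of its probe sets gave -0.99 (adjusted p = 0.029) and array weights -0.90 (adjusted p = 0.027). Of its 5 probe sets tested alone, only 1435448_PM_at passed. The regulators counted 3 higher and 0 lower in GFP-positive than in GFP-negative cells, 4 and 0 in Myc primary tumours against GFP-negative cells, 2 and 2 against GFP-positive cells, and 0 and 3 in Myc secondary against Shh tumours. With the run term the calls of Bnip3l, Bcl2l13 and Casp9 in Myc secondary against Shh tumours were lost, and so were those of Bcl2a1a and Cycs in Myc primary tumours against GFP-positive cells. Cycs was not called in Myc primary against Shh tumours or GFP-positive cells after centring, nor between the sorted cells with the mean of its probe sets; Xiap was not called with that mean, and Foxo3 not on the 6 arrays alone.

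The genes whose signal was most like that of the 3 members of widest range were named by Pearson's r over the 15 arrays, which share their groups, and with no p. For Pmaip1 they were Fbxo6 (0.93), Sertad1 (0.93) and Acer3 (0.92), each with its highest mean in Shh tumours and its lowest in Myc secondary tumours. For Bid they were Dus1l (0.97), Hspbp1 (0.97) and Rars (0.97), an arginyl-tRNA synthetase, each highest in Myc primary tumours and lowest in GFP-negative cells. For Bcl2l11 they were Dnajc3 (0.92), Lpin2 (0.91) and Cdip1 (0.90). Among the members, Mcl1 and Bcl2l11 had r of 0.83, and Bid had -0.77 with Mcl1 and -0.79 with Bcl2l11.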

How the data were processed

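The authors deposited log2 RMA signals of 15 one-colour arrays, made with Partek 6.5 per the submitters' processing notes; further settings are not given in the sources used here. These log2 values were used as deposited. Control probe sets (104) and those without a gene (15588) or with several (551) were left out of the gene table, and each of 17097 genes was represented by its probe set of highest mean; symbols were updated through gene identifiers. Groups were fitted in limma 3.58.1 (R 4.3.3) as 1 one-way model over all arrays (10 residual degrees of freedom), two-sided, with Benjamini-Hochberg adjustment over all genes. The number of arrays limits the precision. The fit was tested on simulated data. The members, gene lists and alternatives were chosen with earlier results of these data known. Named list genes were up to 3 of each list and comparison with the smallest adjusted p; those whose call was lost on leaving out 1 array are counted but not named, a restriction added after values were seen. Genes most alike a member had the highest Pearson r. Promoter sequences are RefSeq's. Alternatives averaged all probe sets of a gene, took each probe set alone, or dropped dim genes (every group mean at or under 3.70), and used cyclic loess, centring, only the 6 arrays of a comparison, an intensity trend with robust variance (statmod 1.5.0), array weights, a run term, and leaving out the 3 arrays that stood apart or each array in turn.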

Additional observations from a re-analysis of the deposited data

How the results depend on the processing

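No paired analysis was possible because the labels state no shared animal, litter or batch for arrays of equal replicate number. The 24 alternatives of each member and comparison, with each probe set tested alone, gave 1558 values of unchanged call. A further 67 came to pass the threshold, 46 no longer passed and 2 reversed. Where the sign changed but neither value passed, the value was counted among the 1558 and not as a reversal. The 2 were probe sets below background: 1426050_PM_at of Bcl2l1 for GFP-positive minus GFP-negative cells (-0.031) and 1447873_PM_x_at of Bid for Myc primary tumours minus GFP-positive cells (-0.025). Most of the 1558 values belong to results that had not passed, and leaving out an array outside a comparison leaves its difference as it was. That total therefore does not measure how stable the calls were. The number of members called in Myc primary against Shh tumours was 2, and 1 on only the 6 arrays. In Myc secondary against Shh tumours it was 2, with 6 under array weights and 1 with the run term. Between the sorted cells it was 3, with 6 for a gene's averaged probe sets, 5 after centring and 6 with every probe set tested. In Myc primary tumours against GFP-negative cells it was 3, with 5 after dim genes were left out and 5 without the 3 arrays that stood apart. In Myc primary tumours against GFP-positive cells it was 1, with 2 for averaged probe sets, after centring, without the 3 arrays and with every probe set, 3 under array weights and 0 with the run term. In Shh tumours against GFP-positive cells it was 1, with 2 on only the 6 arrays, 3 under array weights and 0 with the run term. Leaving out each array in turn gave 4 to 7 members for the F test, and 0 to 2, 1 to 4, 1 to 6, 3 to 5, 1 to 2 and 1 to 1 for these comparisons in the order given. The calls between the Myc groups stayed at 0. The cause of these changes in the counts was not tested. The run term rests on 1 array, and what a run stands for is not stated, so it does not test a cause. The share of all genes called in Shh tumours against GFP-positive cells went from 4.75% with the run term to 23.3% under array weights, and in Myc secondary against Myc primary tumours from 0.00585% on 6 arrays to 5.03% with the run term. Between the sorted cells it reached 53.4% after centring, and in Myc secondary against Shh tumours 38.4% under array weights.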
